A study of Mus musculus with 66 samples.

Results

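Lungs of Nrf2 knockout mouse embryos labelled embryonic day 17.5 (E17.5) were compared with lungs of wild-type embryos of the same labelled age. The samples were chosen by their titles and were 3 knockout lungs (Nrf2-/-, KO) and 3 wild-type lungs (Nrf2+/+, WT), 6 of the 66 samples of a series that covered both genotypes at 11 ages. Each sample was total RNA from 1 homogenised whole lung of a time-mated pregnancy, hybridised to 1 Affymetrix mouse array, and both genotypes were kept on the same feed. The sources do not state the strain, how the allele was deleted, the litter or the sex of the embryos. Standard errors (SE) and p-values therefore measure the spread between lungs only. This spread was pooled within the 22 groups of 3 over all 66 arrays, and was not taken from the 6 compared lungs alone. The choice matters: with the 6 E17.5 arrays alone 1922 probe sets passed an adjusted p of 0.05 (limma), against 550 with all arrays. All 45037 probe sets other than array controls entered the tests. For 18193 genes the probe set that was brightest over all 66 arrays stood for the gene. Levels are given as log2(signal + 16) after quantile normalisation, on which 4 is the floor, and differences are KO minus WT on that scale.

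Nfe2l2 encodes Nrf2, a transcriptional activator of genes for glutathione metabolism, detoxification and repair of oxidative damage. In unstressed cells the adaptor Keap1 hands it to the ubiquitin ligase scaffold Cul3 for destruction, and electrophiles or oxidants release it to bind antioxidant response elements with small Maf proteins, in competition with the repressor Bach1. In the mouse lung around E17.5 the distal airways widen into saccules, cuboidal epithelium gives rise to flat type 1 and surfactant-making type 2 cells, capillaries spread under them, and the first fetal macrophages are present in the tissue.

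The targeted gene followed the labels. Nfe2l2 stood at 5.96, 4.54 and 5.26 in the KO lungs and at 12.24, 12.14 and 12.10 in the WT lungs, a difference of -6.91 ± 0.34 (SE, n = 3 per group) or 120-fold lower in KO (adjusted p = 4e-21, limma). The groups lay far apart, with the KO lungs close to the floor of the scale. A dimmer second Nfe2l2 probe set read 6.17, 6.15 and 6.46 in KO lungs and 6.25, 5.73 and 6.06 in WT lungs, and did not pass (difference 0.25, adjusted p = 0.89). Of the 15 measured genes of the Nrf2 switch itself, Nfe2l2 alone passed: Bach1 differed by 0.47 (adjusted p = 0.065), Sqstm1, a cargo receptor that binds Keap1, by 0.08 and Cul3 by 0.03. Keap1, named after its value was seen, differed by -0.14 (adjusted p = 0.81).

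All 6 libraries carried the lung markers at high levels: Sftpc, the surfactant protein C of type 2 cells, ran from 14.43 to 14.66, Ager of type 1 cells from 14.09 to 14.68, Tbx4 of lung mesenchyme from 12.27 to 12.45 and Foxf1 from 11.46 to 11.97, while Nkx2-1, the lung epithelial master regulator, was dim at 6.3 to 7.05. The deposited array medians ran from 100.9 to 127.1, and the lowest correlation between arrays of 1 group was 0.9793. Each group held libraries high in Xist, expressed from the inactive X chromosome, and libraries high in the Y-linked Eif2s3y. Xist stood at 9.73, 13.77 and 13.79 in the KO lungs and at 13.96, 10.29 and 7.83 in the WT lungs, and Eif2s3y at 10.78, 7.97 and 5.74 in the KO lungs and at 5.42, 10.74 and 10.91 in the WT lungs.

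The libraries labelled E17.5 and E18.5 did not follow their labelled ages in the KO. A scale was built from 4301 probe sets that differed between WT lungs of E15.5 (set to 0) and of PND0, the day of birth (set to 1), and it used none of the E17.5 or E18.5 arrays. The KO libraries labelled E17.5 lay at 0.71, 0.79 and 0.78 on it (mean 0.76 ± 0.05, SD, n = 3), and the WT libraries labelled E17.5 at 0.54, 0.56 and 0.66 (0.59 ± 0.07). The KO libraries labelled E18.5 lay at 0.35, 0.51 and 0.49 (0.45 ± 0.09), and the WT libraries labelled E18.5 at 0.87, 0.88 and 0.68 (0.81 ± 0.11). The KO libraries labelled E17.5 were thus ahead of their WT libraries with no overlap, and the KO libraries labelled E18.5 behind all 3 of theirs and behind all 3 KO libraries labelled E17.5. Maturation and genotype cannot be told apart in the E17.5 comparison alone. For many lists and genes, the results below therefore also give the difference at E18.5 and the mean of both differences. This mean and its SE stay the same if the KO groups of these ages exchange their labels as whole groups. The mean or its SE can change if only some libraries do. For some genes the KO libraries labelled E17.5 minus the WT libraries labelled E18.5 are given too. Whether the order of the libraries comes from the labels, the staging or the genotype was not tested.

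**Figure D1:**
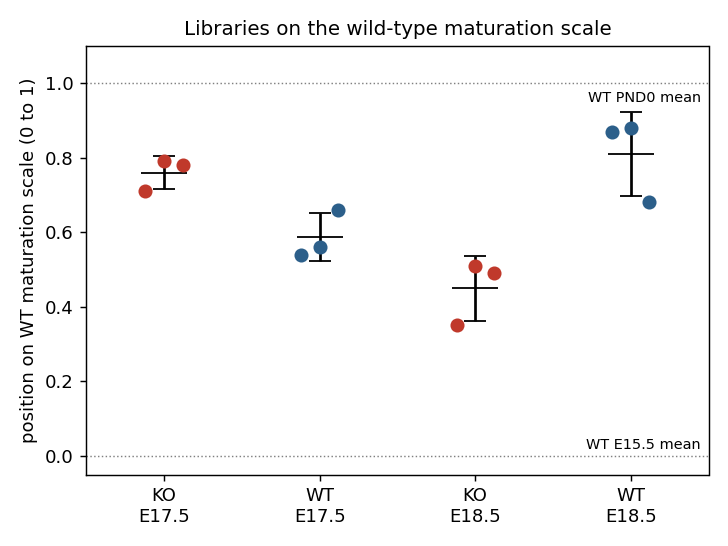
Position of each library (points) on the WT maturation scale, where 0 is the WT E15.5 mean and 1 the WT PND0 mean; bars are group means with SD (n = 3), KO in red and WT in blue. The KO libraries labelled E17.5 lie at 0.71 to 0.79 and the WT libraries labelled E17.5 at 0.54 to 0.66; the KO libraries labelled E18.5 lie lowest, at 0.35 to 0.51.

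At E17.5, 550 probe sets passed an adjusted p of 0.05 (1.22% of those tested; limma, Benjamini-Hochberg), 380 higher and 170 lower in KO. Counted by gene, 240 were higher (1.32%) and 59 lower (0.324%), and in 298 of these 299 the 3 KO values lay beyond the 3 WT values. The change was at least 2-fold for 100 of the higher genes and 20 of the lower. The split depended on scaling: 56.6% of the calls were higher with values as deposited and 85.8% with array medians subtracted, against 69.1% here, and the median difference over all genes was -0.03, 0.13 and 0.02 in these settings. Leaving out 1 library lowered the number of probe sets called to 257 without KO replicate 2, 258 without WT replicate 2, 261 without KO replicate 3, 333 without WT replicate 1 and 359 without WT replicate 3. Over all genes, the 3 KO values lay above the 3 WT values in 15.8% and below them in 10.9%. The largest rises among the genes that passed were in Chil3, Pon1, Fggy, Marco and Ang3, and the largest falls in Nfe2l2, Krt4, Krt13, Rnase2a and Crh. Lists of genes grouped by pathway and cell type are described next, each beside these shares.

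**Figure D2:**
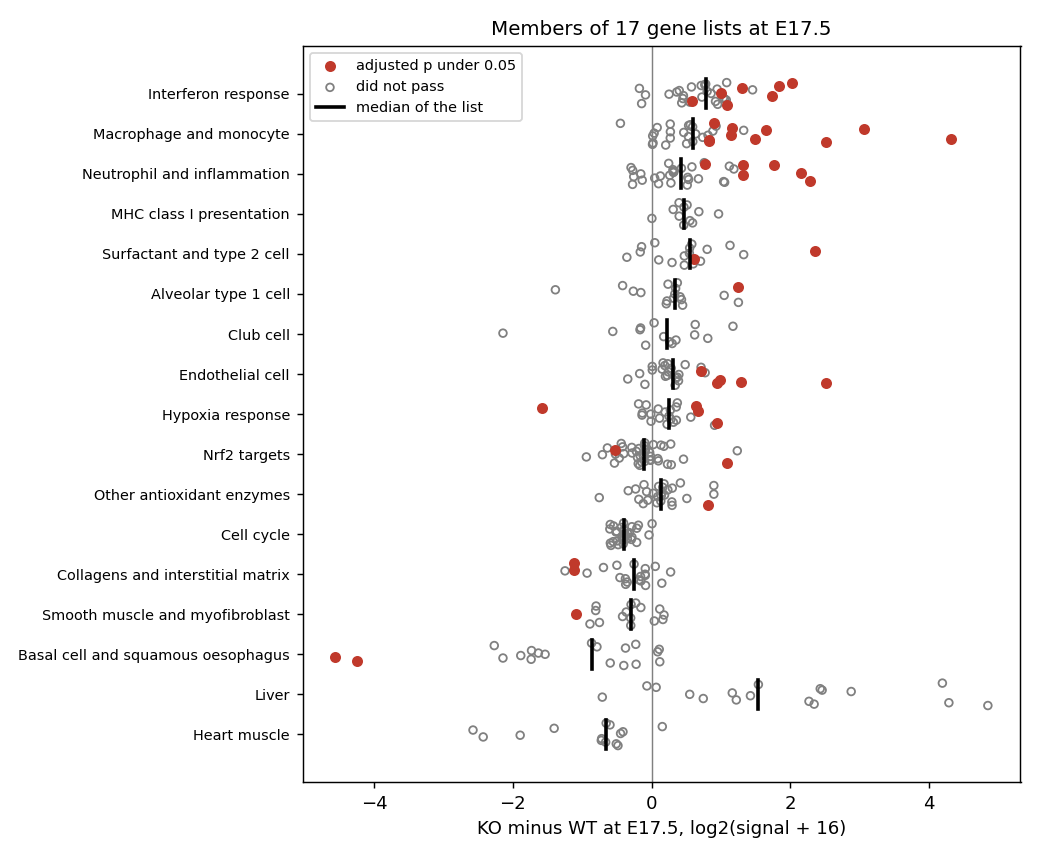
KO minus WT difference at E17.5 on the log2(signal + 16) scale for each measured member of 17 gene lists; filled points passed an adjusted p of 0.05 and the black bar is the median of the list. The interferon, macrophage and inflammation lists have medians of 0.79, 0.59 and 0.43, the Nrf2 targets sit around 0 with a median of -0.1, and no liver gene passed although the median is 1.54.

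Macrophage and monocyte genes were higher in the KO lungs at E17.5. Of 33 measured, 10 rose and none fell, where 1.32% and 0.324% of all genes did. The median difference was 0.59, against 0.0162 over all genes. Chil3, a chitinase-like protein secreted by alveolar macrophages, stood at 10.43, 10.58 and 10.86 in KO lungs and at 6.03, 5.94 and 6.97 in WT lungs, the largest rise among the genes that passed (4.31 ± 0.56, SE, n = 3 per group; adjusted p = 1.1e-06, limma). Marco, a scavenger receptor of alveolar macrophages, stood at 6.95, 7.58 and 7.28 in KO lungs and at 4.18, 4.29 and 4.16 in WT lungs, where it was near the floor (3.06 ± 0.45, adjusted p = 1.8e-05). For both genes every KO lung lay above every WT lung. Clec7a, the beta-glucan receptor dectin-1, stood at 9.79, 9.66 and 9.74 in KO lungs and at 8.14, 8.17 and 8.40 in WT lungs (1.5 ± 0.22). Lysozyme, Lyz2, which type 2 cells also make, differed by 1.65, the pore-forming Mpeg1 by 1.16 and the carbonic anhydrase Car4, which is also an endothelial marker, by 2.51. The others, named after their values were seen, were the signalling adaptors Fcer1g (1.14) and Tyrobp (0.90), the endotoxin co-receptor Cd14 (0.82) and the lysosomal Cd68 (0.82). Among members that did not pass, Csf1r, the receptor that macrophages need to survive, differed by 0.27 (adjusted p = 0.49). In whole-lung RNA, more cells of a type and more RNA per cell cannot be told apart.

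At E18.5, where 7.1% of all genes were called higher and 5.3% lower in KO, the same list had a median difference of -0.33, with 6 members lower and none higher. Over the mean of both ages 97 genes were higher (0.533%) and 77 lower (0.423%), and the macrophage list kept Marco (1.58 ± 0.32, adjusted p = 0.0035) and Chil3 (1.48 ± 0.39, adjusted p = 0.047). Marco was 4.50, 5.50 and 4.18 in the KO lungs labelled E18.5 and 4.15, 5.23 and 4.52 in their WT lungs, so its KO level at E17.5 was above all 9 other libraries of these ages. Set against the WT lungs labelled E18.5, the KO lungs labelled E17.5 were higher for 5 members of the list, where 0.638% of all genes were higher, among them Marco (2.63, adjusted p = 0.00059), Clec7a (1.05, adjusted p = 0.0057), Cd68 (1.04, adjusted p = 0.00096) and Fcer1g (0.99, adjusted p = 0.0021), and Chil3 differed by 1.96 (adjusted p = 0.082). Without any 1 of the 6 libraries, 7 to 9 members passed at E17.5, and of the genes named by rule Lyz2 alone lost its call, without WT replicate 2 (adjusted p = 0.054).

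Genes of neutrophils and acute inflammation rose in 6 of 33 with none lower (median 0.43), where 1.32% and 0.324% of all genes were. Lcn2, the siderophore-binding lipocalin, stood at 10.71, 11.05 and 11.00 in KO lungs and at 8.63, 8.43 and 9.22 in WT lungs (2.16 ± 0.41, SE, n = 3 per group, adjusted p = 0.0011, limma). Chil1, another chitinase-like protein, stood at 9.20, 9.54 and 9.37 in KO lungs and at 6.88, 7.07 and 7.32 in WT lungs (2.28 ± 0.31). Both were separated between the groups, and Socs3, a feedback inhibitor of cytokine signalling, was higher by 0.78. S100a9, a neutrophil granule protein, rose by 1.76, Il1rn, the interleukin-1 antagonist, by 1.32 and the acute-phase protein Saa3 by 1.31. With 1 library left out, S100a9 differed by 1.57 to 1.89 and did not pass in any of the 6 fits (adjusted p of 0.095 to 0.21). Saa3 differed by 1.18 to 1.57 and did not pass without KO replicate 2 or 3 or any WT replicate (0.08 to 0.24), and Il1rn differed by 1.08 to 1.71 and did not pass without WT replicate 1 or 2 (0.077 and 0.058). The count was 3 without WT replicate 1 or without WT replicate 2. The abundant Cxcl15, a chemokine of lung epithelium, differed by 0.53 (adjusted p = 0.47). At E18.5 the list ran the other way (median -0.55, 6 lower, where 5.3% of all genes were), with Lcn2 at -2.42 and Saa3 at -1.67. No member passed over the mean of both ages.

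Interferon-response genes moved together at E17.5. Of 32 measured, 7 rose after adjustment over all probe sets and none fell, where 1.32% and 0.324% of all genes did. At an unadjusted p under 0.05, 24 (75%) were higher, where 7.78% of all genes were higher and 4.56% lower. The median difference was 0.79. Irf9, the DNA-binding subunit of the factor that interferons activate, stood at 9.71, 9.93 and 9.83 in KO lungs and at 8.70, 8.63 and 9.15 in WT lungs (1.00 ± 0.14, SE, n = 3 per group, adjusted p = 1e-05, limma). Bst2, the tether that holds budding virus at the cell surface, stood at 9.23, 9.52 and 9.48 in KO lungs and at 8.37, 8.19 and 8.39 in WT lungs (1.09 ± 0.17). Rtp4, an interferon-induced chaperone of receptors, stood at 9.96, 10.49 and 10.02 in KO lungs and at 8.42, 7.60 and 8.93 in WT lungs (1.84 ± 0.27). In these 3 genes no WT lung reached a KO lung, and the call held without any single library. Ifit3 (1.73), Oasl2 (1.30) and Ifi27 (0.58, named after its value was seen) also rose. Ifit3 lost its call without KO replicate 2 (adjusted p = 0.059) or WT replicate 1 (0.078), and Oasl2 without any library but KO replicate 1 (0.095 to 0.25), so that 4 members passed without KO replicate 2 or WT replicate 1, and with array medians subtracted 12 passed. The brightest non-passing members were Iigp1 (-0.09), Irf1 (0.25) and Rsad2 (0.58). MHC class I genes, which interferons also induce, gave no call among 11, with 7 at an unadjusted p under 0.05, all higher, B2m differing by 0.46 (adjusted p = 0.11) and H2-D1 by 0.59 (adjusted p = 0.13).

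Xaf1, an interferon-induced gene of cell death, gave opposite results on its probe sets. The brighter stood at 10.16, 10.43 and 10.20 in KO lungs and at 8.33, 7.66 and 8.73 in WT lungs (2.03 ± 0.29, adjusted p = 1.1e-05, limma). The other stood at 5.46, 5.78 and 5.83 in KO lungs and at 8.94, 9.80 and 9.25 in WT lungs (-3.64 ± 0.39, adjusted p = 9e-09). The second was low in the KO lungs labelled E18.5 too (4.40, 5.45 and 5.57, against 9.89, 9.95 and 6.68 in WT, difference -3.70), whereas the first differed by -0.76 there. At E15.5 the second differed by -0.11, and its mean difference over the 10 other ages was -0.12. Xaf1 was the only called gene with probe sets called in both directions, among 158 with more than 1 probe set. In 50 of the 158 at least 1 other probe set was called in the same direction, and in the others none was.

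Promoters of the interferon list were searched for the core of the interferon-stimulated response element, GAAANNGAAA read on either strand. It occurred between 250 bases before and 50 after the start site in 15 of the 23 listed genes with a RefSeq window (65.2%). The share was 3.63% of measured genes and 3.99% of all 27025 genes with a window (GRCm38.p6). The list holds interferon-response genes, so its high share follows from its choice and is no test of the E17.5 rise. Among the 5 called genes with a window the core occurred in 2 (40%), Ifit3 and Bst2. These are shown with the matches in capitals, and their levels or differences are given above. The Ifit3 window (chr19:34583279-34583578, plus strand) holds 2 matches read on the opposite strand. The Bst2 window (chr8:71537423-71537722, minus strand) holds 2 that overlap.
Ifit3: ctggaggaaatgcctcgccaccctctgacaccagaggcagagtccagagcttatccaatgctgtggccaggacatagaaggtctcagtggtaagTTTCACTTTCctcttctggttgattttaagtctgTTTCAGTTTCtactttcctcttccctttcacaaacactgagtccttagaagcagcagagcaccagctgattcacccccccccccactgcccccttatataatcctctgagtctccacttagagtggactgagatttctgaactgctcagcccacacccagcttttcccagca
Bst2: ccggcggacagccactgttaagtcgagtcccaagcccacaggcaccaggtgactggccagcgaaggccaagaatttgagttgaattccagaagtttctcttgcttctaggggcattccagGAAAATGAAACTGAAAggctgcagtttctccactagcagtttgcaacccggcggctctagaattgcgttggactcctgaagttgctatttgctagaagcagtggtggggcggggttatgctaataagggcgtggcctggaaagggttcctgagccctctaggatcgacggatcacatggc

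At E18.5 the interferon list was lower in KO (median -0.49, 8 lower, where 5.3% of all genes were), with Irf9 at -0.88 and Rtp4 at -1.08. Over the mean of both ages no member passed (median 0.14). The list mean was 7.99, 8.16 and 8.0 in the KO lungs labelled E17.5 and 7.24, 7.15 and 7.34 in their WT lungs, against 7.33, 7.51 and 7.37 in the KO lungs and 7.81, 7.95 and 7.84 in the WT lungs labelled E18.5. The KO lungs labelled E17.5 were thus highest, and the median difference from the WT lungs labelled E18.5 was 0.10.

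**Figure D3:**
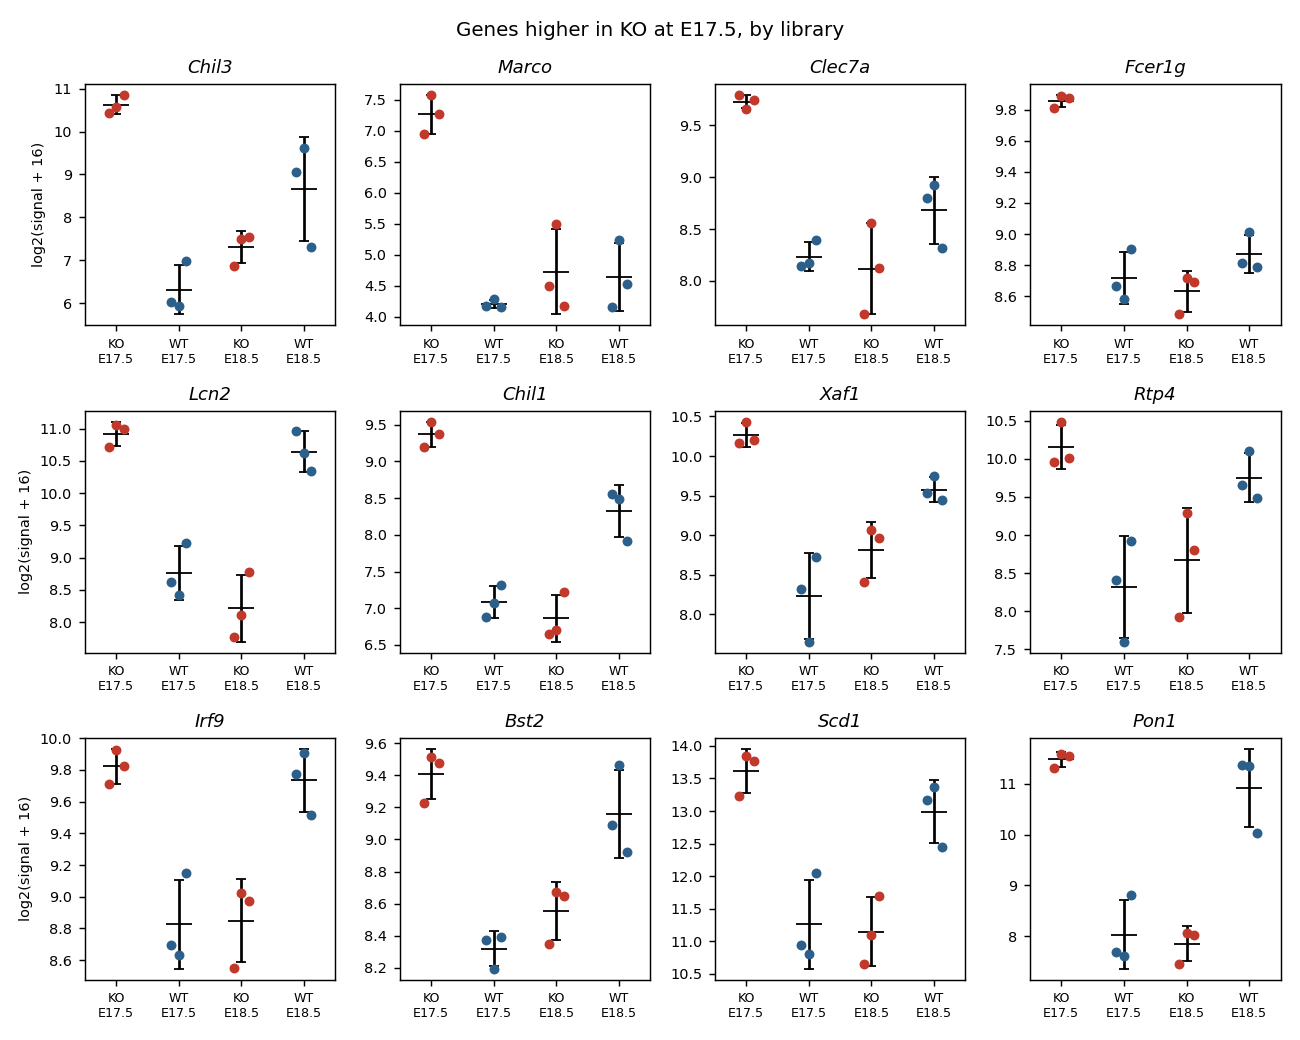
Level of 12 genes (log2(signal + 16)) in each library of E17.5 and E18.5, with group means and SD (n = 3), KO in red and WT in blue; Fcer1g was added after its values were seen. In each panel the KO libraries labelled E17.5 lie above the WT libraries labelled E17.5, and for Lcn2, Irf9 and Pon1 the WT libraries labelled E18.5 are nearly as high (Pon1 at 11.38, 11.36 and 10.03). In the KO libraries labelled E17.5, no interferon, inflammation or type 2 cell list member was called higher than in the WT libraries labelled E18.5. Xaf1 is drawn from the brighter of its probe sets, another of which was called lower in KO.

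The Nrf2 target list holds genes whose induction by Nrf2 is established in mouse. Of 41 measured, 1 was higher and 1 lower at E17.5, where 1.32% and 0.324% of all genes were, with a median difference of -0.1. At an unadjusted p under 0.05, 8 were lower (19.5%, against 4.56% of all genes) and 4 higher (9.76%, against 7.78%), and in 14 all KO lungs lay below all WT lungs (34.1%, against 10.9%). Under the adjusted threshold neither call survived leaving out single libraries. With values as deposited none passed, and with array medians subtracted 2 were higher and none lower. With the 6 E17.5 arrays alone, and likewise with array weights, 4 were lower and 3 higher. Gstp1, a glutathione transferase, stood at 12.72, 12.58 and 12.66 in KO lungs and at 13.19, 13.19 and 13.15 in WT lungs (-0.52 ± 0.13, SE, n = 3 per group, adjusted p = 0.02, limma). The groups did not overlap, but the call was lost without KO replicate 2 or 3 or any WT replicate (adjusted p of 0.056 to 0.12). Aox3, an aldehyde oxidase, stood at 8.44, 8.53 and 8.43 in KO lungs and at 7.68, 6.70 and 7.76 in WT lungs (1.08 ± 0.26, adjusted p = 0.02), and it lost its call without any KO replicate (0.06 to 0.098) or WT replicate 2 (0.35). At E18.5 Aox3 ran the other way by -2.60. The abundant members changed little: the ferritin heavy chain Fth1 differed by 0.09, thioredoxin, Txn1, by 0.28 (adjusted p = 0.15) and transketolase, Tkt, by 0.03. The textbook targets, named after their values were seen, did not pass either: Nqo1, the quinone reductase, differed by -0.18, Hmox1, heme oxygenase, by -0.09, Gclc, the catalytic subunit of glutathione synthesis, by -0.47 (adjusted p = 0.056) and Txnrd1, thioredoxin reductase, by -0.44 (adjusted p = 0.095). Among 27 other antioxidant enzymes, the glutaredoxin Glrx rose (0.81 ± 0.15, adjusted p = 0.00055) and none fell. Gsto1, an omega-class glutathione transferase named after its values were seen, differed by -0.75 at E17.5 (adjusted p = 0.52) and by -1.19 over the mean of both ages (adjusted p = 0.016).

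Over the mean of both ages, 7 of the 41 targets were lower and 1 higher, where 0.423% and 0.533% of all genes were. These genes were named after their values were seen. Gsta3, a glutathione transferase, stood at 5.96, 5.19 and 5.94 in KO and 6.15, 6.75 and 6.31 in WT lungs labelled E17.5, and at 4.95, 4.81 and 4.63 in KO and 7.21, 6.81 and 6.66 in WT lungs labelled E18.5 (mean difference -1.40 ± 0.26, SE, adjusted p = 0.0013, limma). Its KO lungs were below the WT lungs at both ages. The others were Aox1 (-0.94), the glutathione transferase Gstm1 (-0.84), Aox3 (-0.76), malic enzyme, Me1 (-0.50), Gclc (-0.41) and Gstp1 (-0.34), and Tkt was higher (0.35). The core of the antioxidant response element, TGACNNNGC read on either strand, which can hold the AP-1 site, occurred in the promoter windows of 9 of 36 targets (25%), 6 of 23 interferon genes (26.1%), 16.2% of measured genes and 14% of all 27025 genes. Gsta3 (chr1:21240335-21240634, plus strand) and Me1 (chr9:86695865-86696164, minus strand) are shown because they were lower over the mean of both ages and hold it. The other lower targets had no window with a match. Me1 differed by -0.09 at E17.5 (adjusted p = 0.92, limma) and by -0.90 at E18.5. The match is in capitals, and the sequences are from RefSeq (GRCm38.p6).
Gsta3: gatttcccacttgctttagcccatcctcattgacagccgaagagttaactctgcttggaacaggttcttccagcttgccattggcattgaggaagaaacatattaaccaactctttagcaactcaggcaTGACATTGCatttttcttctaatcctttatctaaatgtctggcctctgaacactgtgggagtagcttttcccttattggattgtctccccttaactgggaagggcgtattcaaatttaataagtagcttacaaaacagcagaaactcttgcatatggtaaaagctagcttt
Me1: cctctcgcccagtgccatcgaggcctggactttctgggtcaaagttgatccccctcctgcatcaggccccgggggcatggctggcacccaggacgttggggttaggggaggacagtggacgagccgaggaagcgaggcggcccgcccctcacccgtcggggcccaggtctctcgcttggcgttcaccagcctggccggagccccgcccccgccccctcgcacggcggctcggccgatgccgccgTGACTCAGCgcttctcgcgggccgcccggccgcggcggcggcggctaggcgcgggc

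Alveolar and airway epithelial genes were mostly higher in KO, few past the threshold. Of 18 surfactant and type 2 cell genes 2 rose and none fell (median 0.55), where 1.32% and 0.324% of all genes did. At an unadjusted p under 0.05, 10 were higher, where 7.78% of all genes were. Scd1, the desaturase that makes monounsaturated fatty acids for surfactant lipids, stood at 13.23, 13.85 and 13.77 in KO lungs and at 10.94, 10.80 and 12.05 in WT lungs (2.35 ± 0.41, SE, n = 3 per group, adjusted p = 0.00034, limma), and Fabp5, a fatty acid carrier, was higher by 0.61. Lyz1, made by type 2 cells, differed by 1.33 (adjusted p = 0.059), and Sftpc differed by -0.14 (adjusted p = 0.91). Of 17 type 1 cell genes Rtkn2 rose (1.24 ± 0.27), a call lost without KO replicate 2 (adjusted p = 0.05) or WT replicate 1 or 2 (0.078 and 0.089), while Ager differed by 0.45 and Hopx by -0.26. Of 14 club cell genes none passed. Scgb1a1, the main secretory protein of club cells, stood at 14.23, 14.29 and 14.36 in KO lungs and at 12.81, 12.98 and 13.57 in WT lungs, without overlap but with an adjusted p of 0.35. Outside these epithelial lists, Pon1, an esterase carried on lipoproteins, stood at 11.32, 11.60 and 11.55 in KO lungs and at 7.68, 7.60 and 8.80 in WT lungs (3.46 ± 0.46, adjusted p = 2.2e-06). Its relatives Pon2 and Pon3 differed by 0.30 and 0.55 without passing. Also outside these lists, the calcium-binding S100g (3.00), the peroxisomal oxidase-like Acoxl (2.44), the complement component C6 (2.14) and the acidic chitinase Chia1 (1.88) rose. The cells that made these RNAs were not tested.

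At E18.5 these genes ran the other way. Pon1 differed by -3.07 there, S100g by -2.92, Acoxl by -2.00, C6 by -2.40, Chia1 by -2.09 and Scd1 by -1.84, and the medians of the type 2, type 1 and club cell lists were -0.59, -0.76 and -0.81. None of the 6 genes passed over the mean of both ages (values from -0.13 for C6 to 0.25 for Scd1). Against the WT lungs labelled E18.5, the KO lungs labelled E17.5 differed by 0.57 in Pon1, 0.65 in S100g and 0.06 in Acoxl, each with an adjusted p of 0.59 or more.

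Endothelial genes rose in 5 of 26 with none lower (median 0.31), where 1.32% of all genes were higher and 0.324% lower. Cdh5, the cadherin of endothelial junctions, stood at 11.71, 12.19 and 12.07 in KO lungs and at 10.68, 10.52 and 10.91 in WT lungs (1.29 ± 0.24, SE, n = 3 per group, adjusted p = 0.00082, limma). Car4, which marks a capillary type of the distal lung, stood at 8.60, 9.14 and 8.90 in KO lungs and at 6.38, 5.93 and 6.80 in WT lungs (2.51 ± 0.34). The groups were separate in both, and both calls held without any single library. The endothelin gene Edn1 (0.99), the adrenomedullin receptor Calcrl (0.94) and Pecam1 (0.71) lost theirs in 2, 3 and 5 of the 6 leave-outs (adjusted p of 0.052 and 0.069 for Edn1 without KO replicates 3 and 2, up to 0.089 for Calcrl and 0.21 for Pecam1), and 2 members passed without KO replicate 2 and 3 without KO replicate 3, WT replicate 1 or WT replicate 2. The bright Aplnr, Ramp2 and Emcn differed by -0.10, 0.28 and 0.37. At E18.5 the list ran the other way (median -0.46, 7 lower and none higher, where 5.3% and 7.1% of all genes were). Car4 differed by -2.80 there and Cdh5 by -0.31. No member passed over the mean of both ages. The median difference of the KO lungs labelled E17.5 from the WT lungs labelled E18.5 was -0.03.

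Metabolic and hypoxia genes gave scattered calls. Of 23 hypoxia-response genes, Ankrd37 (0.95), Ndrg1 (0.67) and Pfkfb4 (0.65) rose and Pdk1, the kinase that shuts pyruvate out of mitochondria, fell (9.12, 8.94 and 9.18 in KO lungs and 10.48, 10.42 and 11.06 in WT lungs; -1.58 ± 0.32, SE, n = 3 per group, adjusted p = 0.0022, limma). Each of the 3 rises was lost in 5 of the 6 leave-outs (adjusted p up to 0.3, 0.24 and 0.2 for Ndrg1, Pfkfb4 and Ankrd37), and Pdk1 held in all. The glycolytic Ldha and Pgk1 differed by -0.13 and -0.08. At an unadjusted p under 0.05, 8 members were higher (34.8%, against 7.78% of all genes) and 1 lower (4.35%, against 4.56%), with a list median of 0.25. At E18.5 the list median was -0.40, with 8 members lower and none higher, where 5.3% and 7.1% of all genes were. No member passed over the mean of both ages. Insig1, a brake on sterol synthesis, rose by 0.79, Cdkn1b, the p27 inhibitor of cyclin-dependent kinases, by 0.71, and Bhlhe40 of the clock by 0.91 (lost in 4 leave-outs, adjusted p up to 0.3). Of the 31 cell cycle genes none passed in either direction, with a median of -0.40, whereas 24 were higher in KO at E18.5, where 7.1% of all genes were, with a median of 1.13. The lists of Wnt, Tgf beta and Bmp, Hox, proteasome, heat shock, respiratory chain and ribosomal genes held no call, with medians between -0.13 and 0.01.

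Among the genes lower in KO, the largest change after Nfe2l2 was in keratins of squamous epithelium. Of 19 genes of basal cells and squamous oesophagus, 2 fell and none rose, where 0.324% and 1.32% of all genes did. The median was -0.87, and with values as deposited 4 fell. Krt4 stood at 5.97, 5.32 and 7.32 in KO lungs and at 10.98, 10.51 and 10.81 in WT lungs (-4.56 ± 1.02, SE, n = 3 per group, adjusted p = 0.0079, limma), and its partner Krt13 at 5.73, 5.45 and 6.96 in KO lungs and at 10.43, 10.12 and 10.33 in WT lungs (-4.25 ± 1.03, adjusted p = 0.019). The groups lay wide apart, but without KO replicate 2 neither passed (adjusted p = 0.087 and 0.12), and Krt13 passed only without KO replicate 3. Krt15 differed by -2.14 (adjusted p = 0.32), as it stood at 9.53, 8.82 and 9.25 in KO lungs and at 11.38, 11.38 and 11.26 in WT lungs. The list varied inside the groups of E18.5, where Krt4 was 10.03, 6.65 and 10.21 in KO lungs and 11.05, 8.50 and 11.29 in WT lungs. The list mean was 6.15, 5.97 and 6.38 in KO lungs and 7.58, 7.35 and 7.49 in WT lungs at E17.5, with no overlap. The part of other tissue in this result was not tested.

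Matrix and mesenchymal genes followed. Of 21 collagen and interstitial matrix genes, Vcan, a large proteoglycan of immature matrix, and Mdk, the heparin-binding growth factor midkine, fell. Mdk stood at 11.01, 10.26 and 10.64 in KO lungs and at 11.74, 11.94 and 11.56 in WT lungs (-1.11 ± 0.22, SE, n = 3 per group, adjusted p = 0.0021, limma). Fbn2, the fibrillin of fetal elastic fibres, stood at 11.33, 11.09 and 11.29 in KO lungs and at 12.64, 12.79 and 12.30 in WT lungs (-1.34 ± 0.23, adjusted p = 0.00023). The groups were separate in both. Vcan (-1.11) and Mdk lost their calls without KO replicate 2 (adjusted p = 0.063 and 0.061), and Igf1, the growth factor of lung mesenchyme (-0.95), did so without KO replicates 2 or 3 or WT replicate 2 (0.051 to 0.077). Smooth muscle myosin, Myh11 (-1.09), was lost in each leave-out (adjusted p of 0.085 to 0.15). Clu, the chaperone clusterin, fell by 1.06 and its 3 other probe sets passed in the same direction. The bright collagens Col3a1 and Col1a2 differed by -0.18 and -0.15, and elastin, Eln, by 0.04.

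Crh, corticotropin-releasing hormone, which fetal lung mesenchyme makes, stood at 8.62, 7.63 and 8.27 in KO lungs and at 11.09, 10.34 and 9.62 in WT lungs (-2.18 ± 0.34, SE, n = 3 per group, adjusted p = 4.4e-05, limma). At E18.5 it stood at 10.44, 11.15 and 11.03 in KO lungs and at 6.94, 6.87 and 7.94 in WT lungs, a difference of 3.62. The KO lungs were therefore the lower group at the first age and the higher at the second. Fbn2 (1.46), Vcan (1.87), Mdk (2.14), Clu (1.26) and the tight-junction protein Cldn6 (1.87, against -1.15 at E17.5) likewise had the opposite sign at E18.5, and over the mean of both ages Crh differed by 0.72 (adjusted p = 0.15), Mdk by 0.51 (adjusted p = 0.1) and Fbn2 by 0.06. The call of Cldn6 at E17.5 held in 1 of the 6 leave-outs (adjusted p up to 0.23).

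**Figure D4:**
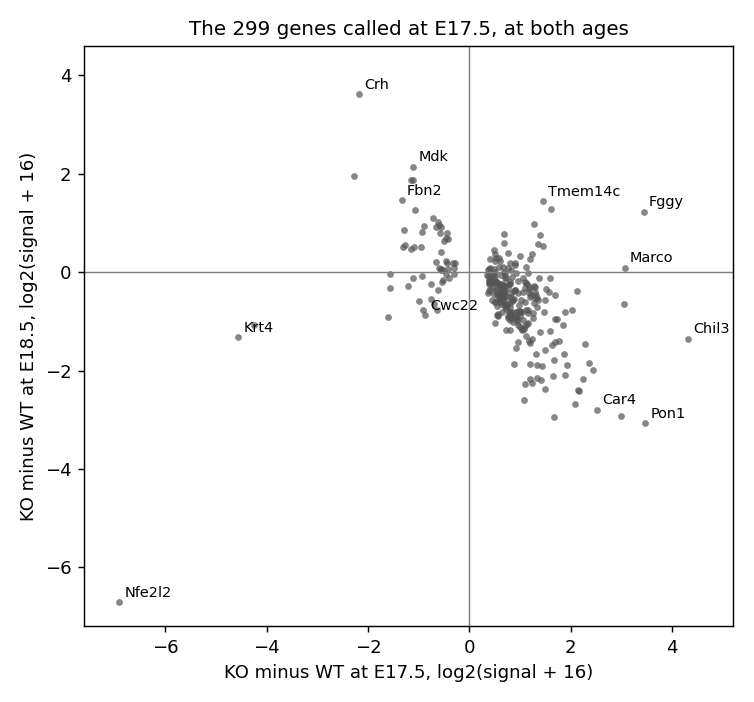
KO minus WT difference at E17.5 (horizontal) and at E18.5 (vertical), both on the log2(signal + 16) scale, for the 299 genes called at E17.5; the 2 ages share no sample. Points in the upper left and lower right have opposite signs at the ages, 132 of them with a call in the opposite direction at E18.5, while Nfe2l2, Tmem14c and Cwc22 lie in the same direction at both ages.

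Of the 299 genes called at E17.5, 132 were called in the opposite direction at E18.5 (112 of those higher at E17.5 and 20 of those lower), 14 in the same direction and 153 in neither. Of all genes, 7.1% were called higher and 5.3% lower in KO at E18.5. The direct test of the difference between the effects at E17.5 and E18.5 called 3506 probe sets (7.78%), 1850 of them with the more positive effect at E17.5. The test against the mean effect at the 10 other ages called 599 (1.33%), 405 more positive and 194 more negative at E17.5. Over the mean of E17.5 and E18.5, 38 of the 299 genes were called in the same direction, 25 higher and 13 lower.

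Some genes changed in the same direction at both ages. Of those described here, Tmem14c and Usp38 were named after their values were seen. Tmem14c, a mitochondrial porphyrin transporter of heme synthesis, stood at 11.20, 11.05 and 11.06 in KO lungs and at 9.55, 9.69 and 9.73 in WT lungs at E17.5 (1.45 ± 0.15, SE, n = 3 per group, adjusted p = 5.5e-09, limma), and differed by 1.44 at E18.5. Usp38, a deubiquitinase, stood at 8.92, 8.92 and 8.88 in KO lungs and at 7.70, 7.47 and 7.48 in WT lungs (1.36 ± 0.17) and differed by 0.58 at E18.5. The groups were separate for both genes at both ages. The carbohydrate kinase Fggy stood at 8.01, 8.08 and 7.88 in KO lungs and at 4.30, 4.40 and 4.96 in WT lungs (3.44 ± 0.42), and at E18.5 at 7.41, 5.38 and 5.76 in KO lungs and at 4.2, 5.77 and 4.90 in WT lungs. It passed over the mean of both ages (2.33 ± 0.30, adjusted p = 8.5e-07) although the lungs overlapped at E18.5. Slc25a30, a mitochondrial carrier, fell by 0.99 at E17.5 and by 0.59 at E18.5, and its 4 other probe sets did not pass.

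**Figure D5:**
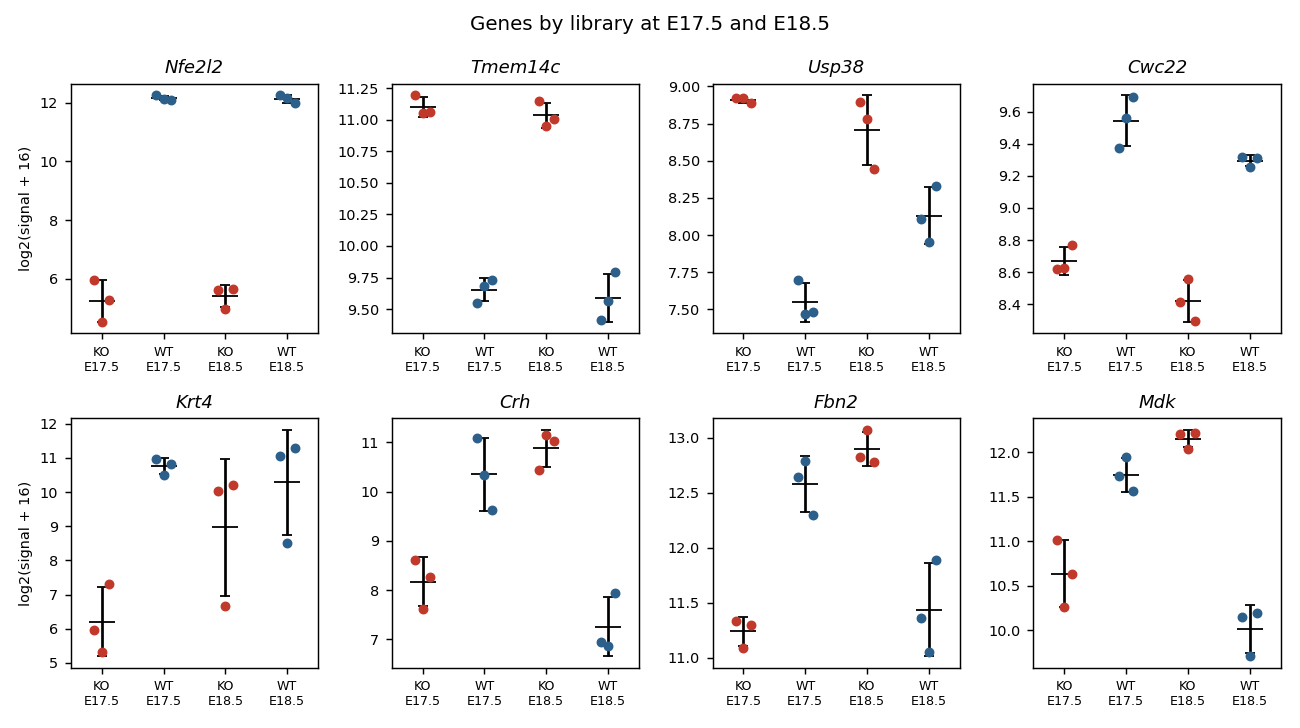
Level of 8 genes (log2(signal + 16)) in each library of E17.5 and E18.5, with group means and SD (n = 3), KO in red and WT in blue. The genotypes stand apart at both ages for Nfe2l2, Tmem14c, Usp38 and Cwc22, and the order of KO and WT turns between the ages for Crh, Fbn2 and Mdk.

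Genes near Nfe2l2 on chromosome 2 can be inherited together with the deleted allele. How far this holds here is not given in the sources used, and their part in the results was not tested. Of the 50 measured genes on each side, 8 passed at E17.5, 4 higher and 4 lower, where 1.32% and 0.324% of all genes did, and 5 passed over the mean of both ages, where 0.533% of all genes were higher and 0.423% lower. Cwc22, a splicing factor 17 places away, stood at 8.62, 8.62 and 8.77 in KO lungs and at 9.38, 9.56 and 9.69 in WT lungs (-0.87 ± 0.15, SE, n = 3 per group, adjusted p = 0.00018, limma) and differed by -0.87 at E18.5 too. Rbm45, an RNA-binding protein 8 places away, rose by 1.45 and Fam171b, 33 places away, fell by 1.62, at E18.5 they differed by 0.53 and -0.92, and both passed over the mean of both ages. The iron reductase Cybrd1 (-1.11), Pdk1, Itprid2 (0.41), Calcrl and the transcript D930003E18Rik (0.89, outside the naming rule) were the others. Cybrd1 and Itprid2 each kept their call in 1 of the 6 leave-outs (adjusted p up to 0.32 and 0.25), and D930003E18Rik lost it without KO replicate 1 (0.052).

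Markers of neighbouring organs were examined beside these results, and no member of the liver, heart muscle or T cell lists passed. Of 17 liver genes 13 (76.5%) were higher in each KO lung than in any WT lung, against 15.8% of all genes: the list mean was 7.30, 7.73 and 6.96 in KO lungs and 5.53, 5.42 and 5.45 in WT lungs. Albumin, Alb, stood at 10.31, 11.10 and 9.71 in KO lungs and at 6.26, 6.55 and 5.45 in WT lungs (4.29 ± 1.56, SE, n = 3 per group, adjusted p = 0.22, limma), and Afp differed by 4.85 (adjusted p = 0.17). The heart muscle list was highest in WT replicate 2, with list means of 9.45, 9.18 and 11.04 in KO lungs and 9.83, 12.13 and 10.58 in WT lungs, and Myl2 stood at 7.32, 6.6 and 9.01 in KO lungs and at 8.27, 13.15 and 8.80 in WT lungs. With the mean of the liver list as a covariate 438 probe sets passed, and with that of the squamous list 289. Of 75 named genes called at E17.5, 60 kept their call with the liver covariate and 47 with the squamous covariate. What other tissue contributed to single results was not tested. The T cell and thymocyte list was low in all 6 (means of 5.13 to 5.65 in KO lungs and 5.09 to 5.19 in WT lungs).

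Several further changes concerned single genes. The ribonuclease family rose in part: Ang3, an angiogenin, stood at 8.88, 8.79 and 8.67 in KO lungs and at 5.73, 5.21 and 6.23 in WT lungs (3.06 ± 0.44, SE, n = 3 per group, adjusted p = 1.1e-05, limma), and Ear3, an eosinophil-associated ribonuclease, rose by 2.12. Rnase2a of the same family fell by 2.28, with 4.39, 5.83 and 5.49 in KO lungs and 7.49, 7.48 and 7.59 in WT lungs. Members of this family are close copies, so their probe sets may not tell them apart. Ear3 lost its call without WT replicate 2 (adjusted p = 0.059), and Rnase2a without KO replicate 1 (0.14) or WT replicate 2 or 3 (0.056 for each). Slfn4, a schlafen of myeloid cells, rose by 2.25, the gap junction gene Gjb6 by 1.92, the phosphodiesterase Gdpd2 by 2.07 and the stefin Stfa2l1 by 1.87 (lost without KO replicate 3 or WT replicate 3, adjusted p = 0.058 and 0.063). Zfp142, a zinc finger gene, fell by 1.57 while its 6 other probe sets did not pass. Of the genes in this paragraph, Gdpd2 alone had the other sign over the mean of both ages (-0.30, adjusted p = 0.69, limma). Against the WT lungs labelled E18.5, Slfn4 (-0.06) and Rnase2a (0.63) had the other sign in the KO lungs labelled E17.5. The E17.5 difference minus the E18.5 difference was 4.75 for Gdpd2 and -4.25 for Rnase2a.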

How the data were processed

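Signals from Affymetrix arrays were deposited as intensity on a linear scale, 1 value per probe set and array; per the submitters' processing notes they came from GCOS, with no version or algorithm given in the sources used here. The trimmed mean (2%) of this intensity was 500 on 42 of the 66 arrays, including the 6 compared, and differed on the 24 arrays of PND1 to PND4. From these values all 66 arrays were quantile normalised, 16 was added and log2 taken. Means of 22 groups of 3 were fitted with limma 3.58.1 in R 4.3.3 (lmFit, eBayes with an intensity trend; 44 residual and 6.69 prior degrees of freedom), and the KO minus WT contrast was adjusted by Benjamini-Hochberg over 45037 probe sets. The precision is limited by 3 arrays per group. The 64 control probe sets were left out of the tests. Of the others 34945 carried 1 gene symbol in the platform annotation, 932 several and 9160 none, and genes were named from probe sets with 1 symbol only.

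Genes were named by rule: Nfe2l2, the 20 largest rises and 20 largest falls among called genes whose groups did not overlap, up to 6 called and the 3 brightest other members of each gene list, the 5 largest differences of the effect from the other ages in each direction, and the called neighbours of Nfe2l2, passing over predicted loci; others are marked as named after their values were seen. The comparison, its members and the gene lists were chosen with earlier results of these data known. Alternatives were the scaling, the added constant, dim probe sets, the eBayes settings, array weights, the arrays in the fit, a replicate block, covariates, each library left out, the mean of both ages and KO E17.5 minus WT E18.5. Figures were drawn with matplotlib 3.10.9. Promoter windows are RefSeq sequences (GRCm38.p6).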

Additional observations from a re-analysis of the deposited data

Results flagged for a closer look

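The KO minus WT difference at E17.5 differed from the mean difference at the 10 other ages for 599 probe sets and from the difference at E18.5 for 3506 (limma, adjusted p under 0.05). The E17.5 difference exceeded the mean of the other ages by 4.33 for Chil3, 3.9 for Marco, 3.63 for Pon1, 3.36 for Ang3 and 3.33 for S100g. It lay below that mean for Krt4 (-4.09), Crh (-2.85), Rnase2a (-2.55), Pdk1 (-1.87) and Cldn6 (-1.59). Of these calls, Krt4 was lost without each library but KO replicate 3 (adjusted p of 0.094 to 0.19) and Rnase2a without KO replicate 1 (adjusted p = 0.075).

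Set against E18.5 alone, the difference was more positive at E17.5 by 6.54 for Pon1, 5.92 for S100g, 5.67 for Chil3, 5.31 for Car4 and 4.75 for Gdpd2. It was more negative for Myl2 (-6.1), Crh (-5.8), Myl3 (-5.76), Col2a1 (-4.36) and Rnase2a (-4.25). Myl2 and Myl3 are heart muscle myosin light chains and Col2a1 is a cartilage collagen, and single libraries stood out: Myl2 was 14.45 in KO replicate 1 labelled E18.5, 13.15 in WT replicate 2 labelled E17.5 and 12.85 in WT replicate 3 labelled E18.5. Without WT replicate 2 labelled E17.5 the Myl2 difference was -4.56 (adjusted p = 0.12) and that of Myl3 -4.28 (adjusted p = 0.14), and without KO replicate 2 they were -5.58 and -5.35 (adjusted p = 0.057 and 0.064). The Col2a1 call was lost without KO replicate 2 or 3 or WT replicate 2 or 3 (adjusted p of 0.097 to 0.12).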

How the results depend on the processing

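Of 75 named genes called at E17.5, 38 kept their call without any single library and 37 lost it at least once. The 550 probe sets called became 829 with array medians subtracted, 3072 with array weights, 1922 with the 6 E17.5 arrays alone, 365 for KO E17.5 minus WT E18.5 and, chosen after seeing the data, 1004 with the 12 arrays of both ages and 289 with the squamous list as a covariate. Without 1 library they numbered 257 to 380. Same-numbered lungs of E17.5 shared only a number (correlations of their deviations -0.012, -0.035 and -0.013): with a replicate block 457 were called. The 599 probe sets that differed from the other ages became 3172 with array weights, 396 without PND1 to PND4 and 269 to 452 without 1 library, and the 3506 that differed from E18.5 became 7216 with array weights. On a scale that starts at WT E13.5, KO E17.5 lay at 0.84, WT E17.5 at 0.72 and KO E18.5 at 0.60. The causes were not tested. Over the mean of both ages 13 of the 75 genes kept their call and 20 had the other sign: Car4 (-0.15), Lcn2 (-0.13), C6 (-0.13), Gdpd2 (-0.30), Chia1 (-0.10), Crh (0.72), Fbn2 (0.06), Cldn6 (0.36), Vcan (0.38), Mdk (0.51), Clu (0.10), Aox3 (-0.76), Rtkn2 (-0.51), Calcrl (-0.02), Lyz2 (-0.23), Saa3 (-0.18), Socs3 (-0.02), Ankrd37 (-0.06), Acss2 (-0.05) and Dhrs3 (-0.07). For KO E17.5 minus WT E18.5, 9 kept their call and 17 had the other sign: Car4 (-0.24), Slfn4 (-0.06), C6 (-0.23), Chia1 (-0.06), Rnase2a (0.63), Crh (0.92), Cym (0.01), Cldn6 (0.49), Vcan (0.27), Mdk (0.62), Aox3 (-0.87), Fabp5 (-0.01), Rtkn2 (-0.74), Calcrl (-0.01), Pecam1 (-0.16), Saa3 (-0.29) and Pfkfb4 (-0.08). Signals near the floor limit what can be said of dim genes.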
